A study of Homo sapiens with 9 samples.

Results

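Translation initiation, elongation and release factors are the proteins that load ribosomes on mRNA, move them along it and let the finished chain go. They were followed in HT-29, a cell line established from a human adenocarcinoma of the colon. Members are the genes of the array's named rows whose symbol starts with EIF1 to EIF6, EEF1, EEF2, ETF1 or GSPT, less EIF4EBP1, hyphenated names and pseudogenes. The rule used names only and no measured value, though it was chosen with earlier results of these data known. It found 34 genes among 14884 with a named row, and 33 of them were bright enough to be tested. The release factor gene GSPT2 was dim, with group means of 4.08, 3.85 and 3.93 against a limit of 4.50. Of 70 factors looked for by role, 36 had no named row here, among them all 3 eIF2 subunits, all 5 eIF2B subunits, all 13 eIF3 subunits, EIF4G1, EIF4A1 and ETF1.

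All 9 arrays hold total RNA of HT29 cells harvested 24 h after treatment, 3 per group. Untreated cells received the vehicle, and the other groups received a rosemary extract rich in polyphenols or carnosic acid, a phenolic diterpene of rosemary. The sources used here give neither concentration, so it is not known whether the doses of the treated groups match. The arrays are of 1 cell line, and the 3 arrays of each group are described as biological replicates, with no separate cultures or days named. The p-values measure the spread between these arrays.

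The values are RMA expression levels on a log2 scale, so that 1 unit is a doubling. A level belongs to its own probes and is not set against the level of another gene. The medians of the arrays over all 53617 rows were 4.82 to 4.90, and arrays of 1 group correlated at 0.991 or above. Of 12 colon epithelial markers, 10 had a named row and all 10 were tested, with EPCAM at 11.36, KRT18 at 12.59, CDX1 at 6.20 and CDX2 at 5.77 in untreated cells. With the extract 2 of the 10 were called higher and 3 lower, and with carnosic acid 3 higher and 3 lower. CEACAM5 rose by 2.82 and 2.22 (log2) and KRT20 by 0.77 and 0.88. KRT19 differed by -0.03 and 0.28, and only the latter was called. VIL1 differed by -1.29 and -0.35, KRT18 by -0.48 and -0.31 and EPCAM by -0.19 and -0.21. The fibroblast genes DCN and LUM (2.96 and 3.64 in untreated cells) and PECAM1 of endothelium (4.20) lay under the dim limit. The endothelial VWF lay above it, at 4.87, 4.81 and 4.78 in the 3 groups. KDR, also of endothelium, read 4.64, 4.44 and 4.38 and was too dim over the 9 arrays to be tested. Of 6 leukocyte markers 3 had a named row: LYZ stood at 12.43 in untreated cells, 12.17 with the extract and 12.35 with carnosic acid, CD14 at 4.98, 4.67 and 4.71, and CD68 at 7.94, 9.83 and 9.18. The part of these shifts in the results was not tested. In bulk RNA a change in the mix of cells and a change in RNA per cell cannot be told apart.

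Initiation begins with a small ribosomal subunit that carries the initiator tRNA on eIF2, scans from the cap held by eIF4E, and stops at a start codon under the control of eIF1 and eIF5. Stress kinases phosphorylate eIF2, which slows most translation while letting a few stress mRNAs through. In elongation eEF1A brings the charged tRNAs, eEF2 moves the ribosome by a codon, and eIF5A, the protein known for carrying the modified lysine hypusine, helps it through difficult stretches. Many mRNAs of this machinery start with a C and a run of pyrimidines, the terminal oligopyrimidine tract, through which mTORC1 controls their translation.

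That start was looked for in the RefSeq promoter windows (GRCh38.p14, 250 bases before to 50 after an annotated start), which 29 of the 34 members had in 40 windows. A C followed by at least 4 pyrimidines at the annotated start was found in 4 members, EEF1A1, EEF2, EIF4B and EIF2D, that is in 10% of member windows and 4.07% of all 35116 windows. The starts are shown because these members, with EEF1G, a gene called lower with both treatments, can be set beside their levels further on. Each runs from 10 bases before the start to 20 bases from it, with the pyrimidine run in capitals. The window of EEF1G has no run at its annotated start, which is an A, but a C and pyrimidines follow directly after that base.
EEF1A1, chr6:73521013-73521042, minus strand: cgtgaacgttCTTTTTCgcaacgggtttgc
EEF2, chr19:3985444-3985473, minus strand: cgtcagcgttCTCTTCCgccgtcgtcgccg
EIF4B, chr12:53006446-53006475, plus strand: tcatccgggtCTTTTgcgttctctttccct
EIF2D, chr1:206612446-206612475, minus strand: ccagccgggcCCTTTTCgcggccgggcccc
EEF1G, chr11:62573872-62573901, minus strand: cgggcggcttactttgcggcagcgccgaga

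The promoters of EIF5A2 and EIF2AK3 are shown because these were the only members called in both treatments with a change of at least 0.5 on the log2 scale. Each is the 250 bases before the annotated start. Capitals mark CACGTG, the E-box, a motif added after the values were seen.
EIF5A2, chr3:170908638-170908887, minus strand: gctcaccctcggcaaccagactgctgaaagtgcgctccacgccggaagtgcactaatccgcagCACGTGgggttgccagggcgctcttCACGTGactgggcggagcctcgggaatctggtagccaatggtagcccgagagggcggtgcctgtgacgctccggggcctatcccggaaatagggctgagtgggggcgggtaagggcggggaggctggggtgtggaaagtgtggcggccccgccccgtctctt
EIF2AK3, chr2:88627465-88627714, minus strand: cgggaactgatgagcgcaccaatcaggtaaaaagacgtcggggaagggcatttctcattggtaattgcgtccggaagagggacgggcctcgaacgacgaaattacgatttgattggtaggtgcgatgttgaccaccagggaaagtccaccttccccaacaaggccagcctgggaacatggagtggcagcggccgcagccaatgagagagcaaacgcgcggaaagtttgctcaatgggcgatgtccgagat

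The EIF5A2 stretch holds CACGTG at 187 and 162 bases before the start, and that of EIF2AK3 holds none. The motif reads the same on both strands and was in 8 of 40 member windows (20%) and in 7.26% of all windows. The members with it were EEF2K, EIF1B, EIF2AK2, EIF4A3, EIF4B, EIF4E, EIF4H and EIF5A2, which include genes that rose, fell and did not pass. TGATGNAA, the core of the C/EBP-ATF response element, searched on both strands, was in 1 member window (2.5%), of EIF4E3, and in 3.62% of all windows. A match is only a match of letters.

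With rosemary extract 7 of the 33 tested members were called higher than untreated cells and 6 lower, at an adjusted p under 0.05 in limma. The called share was 39.4%, beside 38.1% of all 11163 genes tested (21.8% higher, 16.3% lower). In this fit the factors as a set were thus called about as often as any gene. Their median log2 difference was 0.007 against -0.018 for all genes. The groups did not overlap for 18 of 33 members, beside 46.7% of all genes. Centring the arrays on the genes tested, an alternative added after the data were seen, gave 7 higher and 9 lower. All genes then gave 2256 higher and 2118 lower of 11163. Cyclic loess gave 8 higher and 8 lower, beside 2342 and 1973 of all genes. Both settings called 16 members instead of 13, while the genes called went from 4256 to 4374 and 4315. Most changes were small: 4 of the 13 called members reached 0.5 on the log2 scale. These were EIF5A2, EIF1B and EIF2AK3, higher, and EEF2K, lower.

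With carnosic acid 3 members were called higher and 3 lower, 18.2% of those tested beside 19.0% of all genes (12.9% higher, 6.12% lower). The median log2 difference was 0.008 against -0.011 for all genes. The groups did not overlap for 11 of 33 members, beside 32.8% of all genes. When arrays were centred on their median over all rows the split was 4 higher and 2 lower, beside 1650 and 473 of all genes. Both comparisons use the same untreated arrays. The 5 members called in both were EIF5A2, EIF2AK3 and EIF1AD, higher in each, and EEF1G and EIF5B, lower in each. Another 8 were called with the extract alone and 1, EIF4B, with carnosic acid alone, and 18 were called in no comparison.

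**Figure D1:**
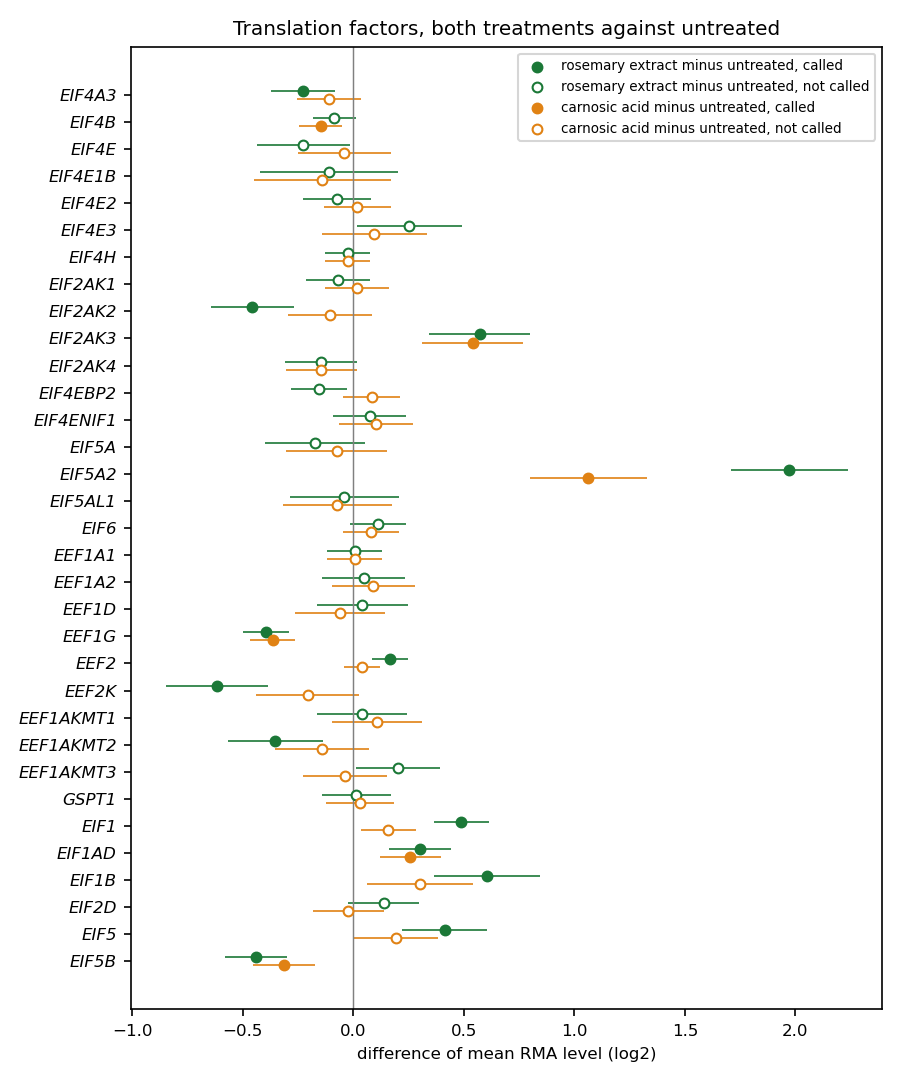
Differences of mean RMA level (log2, horizontal axis) of the 33 tested translation factors, rosemary extract minus untreated (green) and carnosic acid minus untreated (orange), with 95% confidence intervals from limma and 3 arrays per group. Filled points are called at an adjusted p under 0.05; EIF5A2 stands apart at 1.97 and 1.06, and the other members lie between -0.62 and 0.61.

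EIF5A2, a paralog of the elongation factor eIF5A, rose most of all members. In untreated cells it read 6.57, 6.64 and 6.89, with rosemary extract 8.84, 8.73 and 8.44, and with carnosic acid 7.85, 7.86 and 7.57. The 3 groups did not overlap anywhere, and carnosic acid lay between the others. The rise with the extract was 1.97 ± 0.12 (log2, SE), or 3.92-fold (adjusted p = 2.40e-07), and with carnosic acid 1.06 ± 0.12, or 2.09-fold (adjusted p = 1.32e-04). Among 11163 genes it had the 44th largest difference with the extract and the 67th with carnosic acid. Its 3 calls, the direct one included, held under all 19 alternatives.

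EIF5A itself, the housekeeping form, did not pass. It read 6.70, 6.58 and 6.46 in untreated cells, 6.31, 6.56 and 6.34 with the extract, and 6.51, 6.63 and 6.37 with carnosic acid, so all groups overlapped. Its difference was -0.17 with the extract (95% interval -0.40 to 0.05, adjusted p = 0.225) and -0.075 with carnosic acid (-0.30 to 0.15, adjusted p = 0.663). EIF5AL1, a gene nearly identical to EIF5A in sequence, so that their probes may share signal, gave -0.040 and -0.072 (adjusted p = 0.819 and 0.710). EIF6, which keeps the large ribosomal subunit from joining too early, gave 0.11 and 0.080 (adjusted p = 0.161 and 0.378).

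DHPS, the enzyme of the opening step of hypusine synthesis on eIF5A, is no member but rose in both treatments. It read 8.06, 7.91 and 8.02 in untreated cells, 8.78, 8.92 and 8.81 with the extract, and 8.49, 8.52 and 8.60 with carnosic acid, again without overlap. The differences were 0.84 ± 0.07 (SE, adjusted p = 1.44e-06) and 0.54 ± 0.07 (adjusted p = 2.08e-04). DOHH, which completes hypusine, gave 0.028 and -0.043 (adjusted p = 0.856 and 0.805). Of the 8 hypusine and diphthamide enzymes looked for, 7 were tested. With the extract 1 was higher and 2 lower, DPH2 (-0.26, adjusted p = 0.0242) and DPH5 (-0.45, adjusted p = 0.0298), which make the diphthamide of eEF2. Their calls were lost under 6 and 7 alternatives, with adjusted p up to 0.0917 and 0.115, and leaving out replicate 3 of untreated cells or of the extract ended both. With carnosic acid DHPS was the only one called. The called shares, 42.9% and 14.3%, are near those of all genes, 38.1% and 19.0%.

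**Figure D2:**
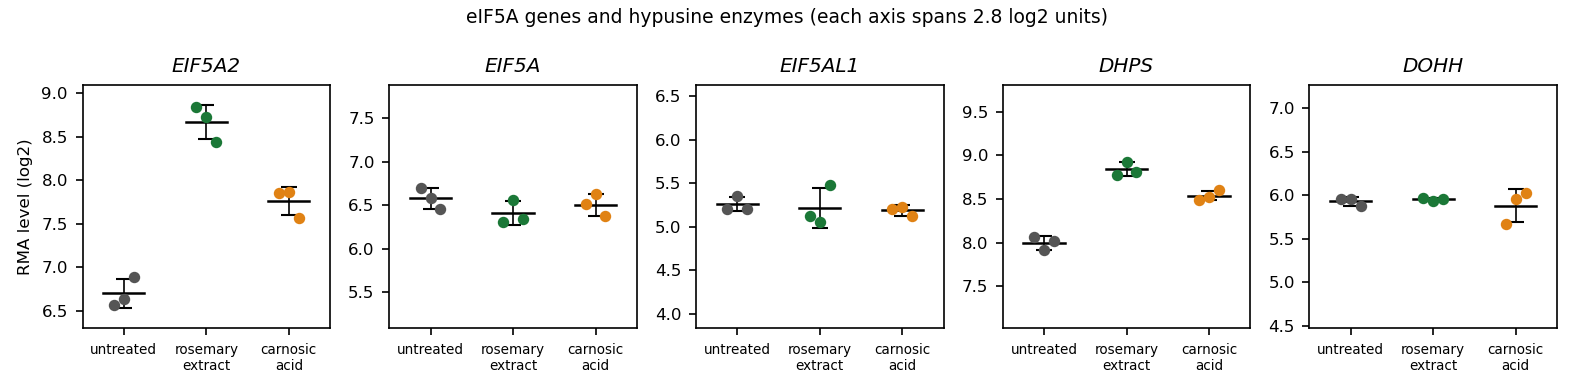
RMA level (log2, vertical axes, each 2.8 units long) of the eIF5A genes and the hypusine enzymes on the 3 arrays of each group; points are arrays, the line is the mean and the bar the SD. EIF5A2 and DHPS rise in both treated groups without overlap with untreated cells, and the points of EIF5A, EIF5AL1 and DOHH overlap between groups.

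The kinases of eIF2 did not move together. EIF2AK3 encodes PERK, the kinase in the membrane of the endoplasmic reticulum that senses unfolded proteins. It read 6.61, 6.92 and 6.87 in untreated cells, 7.54, 7.34 and 7.23 with the extract, and 7.41, 7.25 and 7.36 with carnosic acid. Both treated groups lay above the untreated one and overlapped each other. The rises were 0.57 ± 0.10 (log2, SE, adjusted p = 0.00101) and 0.54 ± 0.10 (adjusted p = 0.00404), called under all 19 alternatives. The study's title names the unfolded protein response, so this direction is not independent evidence for it.

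EIF2AK2 encodes PKR, the kinase that binds double-stranded RNA. It read 9.40, 9.33 and 9.59 in untreated cells, 9.02, 8.94 and 8.99 with the extract, and 9.23, 9.26 and 9.51 with carnosic acid. The extract arrays lay below all others, and carnosic acid overlapped the untreated cells. EIF2AK2 fell by 0.46 ± 0.09 with the extract (log2, SE, adjusted p = 0.00130), while its difference with carnosic acid was -0.11 (adjusted p = 0.438).

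EIF2AK4 encodes GCN2, which senses uncharged tRNA. Its levels were 7.37, 7.30 and 7.51 in untreated cells, 7.24, 7.23 and 7.28 with the extract, and 7.28, 7.19 and 7.28 with carnosic acid. The treated arrays were all lower than the untreated ones, but the differences did not pass (-0.15 and -0.14, adjusted p = 0.147 and 0.205). EIF2AK1, the haem-regulated kinase HRI, read 10.28, 10.29 and 10.49, then 10.30, 10.22 and 10.33, then 10.39, 10.27 and 10.44 in the same order of groups. It overlapped throughout, with -0.069 (95% interval -0.21 to 0.08) and 0.016 (-0.13 to 0.16, adjusted p = 0.463 and 0.895).

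**Figure D3:**
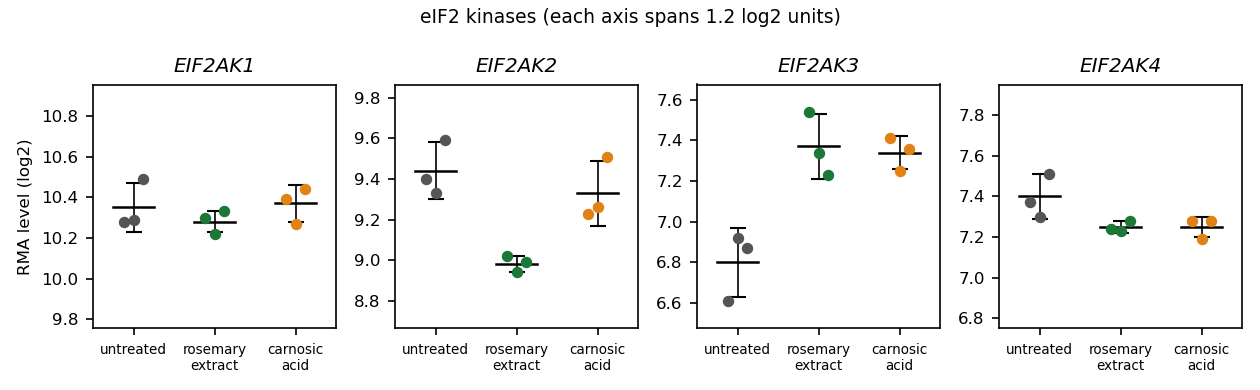
RMA level (log2, vertical axes, each 1.2 units long) of the 4 eIF2 kinase genes on the 3 arrays of each group; points are arrays, the line is the mean and the bar the SD. EIF2AK3 is higher in both treated groups, EIF2AK2 is lower with the extract, and EIF2AK1 and EIF2AK4 did not pass the test.

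Of 6 tested genes listed under scanning and start codon choice, 4 were called higher and 1 lower with the extract. That is 83.3%, beside 38.1% of all genes. With carnosic acid 1 was higher and 1 lower, 33.3% beside 19.0%. The list also holds EIF5B, of subunit joining, EIF2D, of tRNA placement, and EIF1AD, which has an eIF1A domain. The shares are thus those of a mixed list, drawn up with earlier results of these data known. EIF1, which keeps the scanning ribosome from stopping at a wrong codon, read 10.10, 9.98 and 10.13 in untreated cells, 10.57, 10.56 and 10.55 with the extract, and 10.33, 10.19 and 10.17 with carnosic acid. It rose by 0.49 ± 0.06 with the extract (log2, SE, adjusted p = 3.00e-05). With carnosic acid all arrays lay above the untreated ones, by 0.16, which did not pass (adjusted p = 0.0710). Median centring over all rows gave it a call (0.20, adjusted p = 0.0424).

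Its paralog EIF1B read 5.14, 5.23 and 5.58 in untreated cells, 5.98, 5.92 and 5.87 with the extract, and 5.63, 5.61 and 5.62 with carnosic acid. It rose by 0.61 ± 0.11 with the extract (log2, SE, adjusted p = 9.01e-04). The difference with carnosic acid was 0.30 (adjusted p = 0.0762), and without untreated replicate 3, the highest of its group, it was 0.43 and called (adjusted p = 0.0074). EIF5, the partner that triggers GTP hydrolysis on eIF2, went from 8.37 ± 0.10 to 8.78 ± 0.16 with the extract (SD, n = 3), a rise of 0.41 (adjusted p = 0.00276). With carnosic acid it stood at 8.56 ± 0.09 (0.19, adjusted p = 0.159).

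EIF1AD, which carries an eIF1A domain, went from 8.57 ± 0.07 to 8.87 ± 0.07 with the extract and 8.83 ± 0.06 with carnosic acid (SD, n = 3). Both rises were called (0.30 and 0.26, adjusted p = 0.00251 and 0.0144). The call with carnosic acid was lost when all rows were tested (adjusted p = 0.0618) and without carnosic acid replicate 3 (0.0504). EIF5B, the GTPase that joins the large subunit, fell in both treatments. Its arrays read 10.18, 10.00 and 10.05 in untreated cells, 9.72, 9.60 and 9.60 with the extract, and 9.69, 9.85 and 9.76 with carnosic acid. The falls were -0.44 ± 0.06 and -0.31 ± 0.06 (SE, adjusted p = 1.84e-04 and 0.00516). EIF2D, a factor that can place initiator tRNA without eIF2, did not pass in either (0.14 and -0.022, adjusted p = 0.168 and 0.869).

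**Figure D4:**
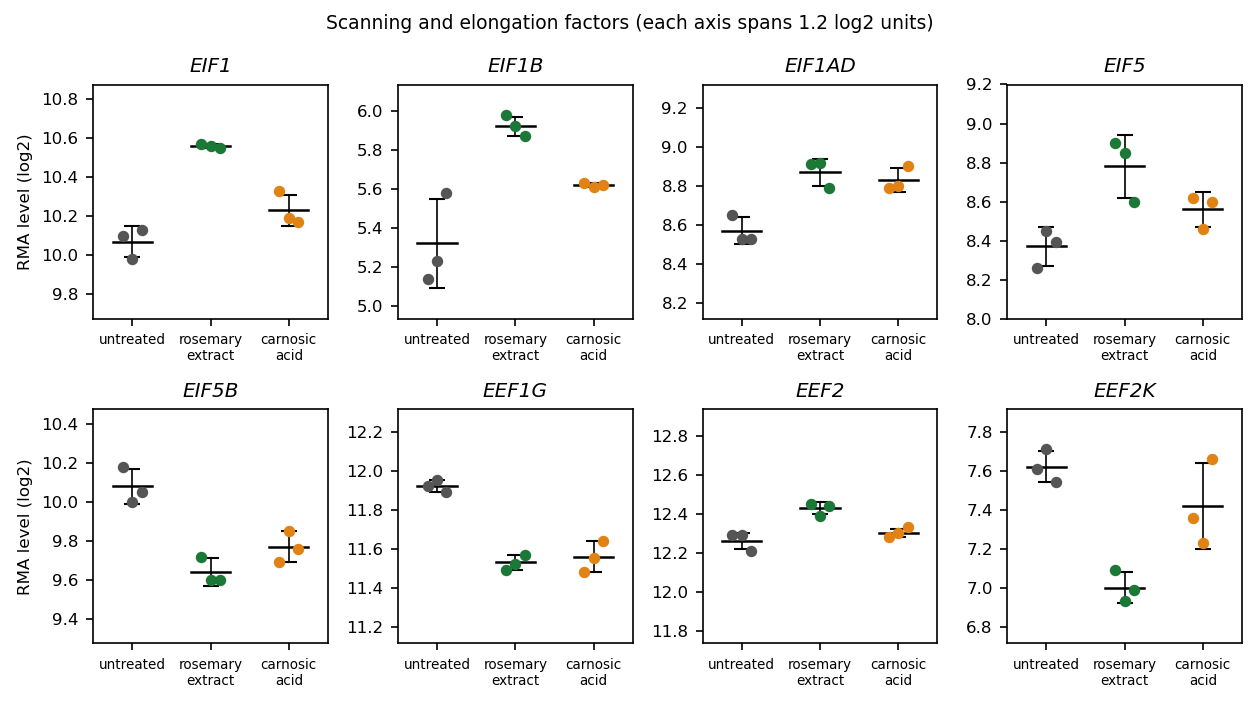
RMA level (log2, vertical axes, each 1.2 units long) of 5 genes listed under scanning and subunit joining and 3 elongation genes. The 3 arrays of each group are shown. Points are arrays, the line is the mean and the bar the SD. EIF1, EIF1B, EIF1AD, EIF5 and EEF2 are higher with the extract, EIF5B, EEF1G and EEF2K are lower, and EIF1AD, EIF5B and EEF1G are also called with carnosic acid.

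Of 7 tested cap-binding and helicase genes, 0 were called higher and 1 lower with each treatment, a different gene in each. That is 14.3%, beside 38.1% of all genes with the extract and 19.0% with carnosic acid. EIF4E, the cap-binding protein, read 7.21, 6.86 and 7.02 in untreated cells, 6.86, 6.83 and 6.71 with the extract, and 6.97, 6.93 and 7.07 with carnosic acid. The treated groups overlapped or touched the untreated one. Its differences were -0.23 (95% interval -0.44 to -0.02, adjusted p = 0.0870) and -0.040 (-0.25 to 0.17, adjusted p = 0.815). The former was called without untreated replicate 2 (-0.31, adjusted p = 0.0237) and with arrays centred on the genes tested (-0.26, adjusted p = 0.0454).

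EIF4A3, the helicase of the exon junction complex, fell from 8.86 ± 0.12 to 8.63 ± 0.04 with the extract (SD, n = 3, adjusted p = 0.0168). That call was lost under 4 alternatives, with adjusted p between 0.0528 and 0.0623: median centring, all rows tested, and leaving out either untreated replicate 3 or rosemary extract replicate 2. EIF4B, a helicase cofactor with a pyrimidine start, went from 10.63 ± 0.06 to 10.48 ± 0.01 with carnosic acid (-0.15, adjusted p = 0.0391), and this call was lost under 12 of 19 alternatives (adjusted p up to 0.184), among them the replicate block (0.0568) and leaving out any array except untreated replicate 2 and rosemary extract replicate 3. Its dimmer row went from 8.36 ± 0.21 to 7.97 ± 0.27 there (SD, n = 3, a difference of -0.39), for which no test is given. EIF4H, EIF4E1B, EIF4E2, a cap-binding protein that represses translation, and EIF4E3 did not pass in either treatment. Their differences lay between -0.14 and 0.25. EIF4E3 was called with the extract when untreated replicate 2 was left out (0.37, adjusted p = 0.0144) and under cyclic loess (0.30, 0.0442), and EIF4E1B with carnosic acid without carnosic acid replicate 2 (-0.34, 0.0311).

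EIF4EBP2 encodes a small protein that holds eIF4E away from eIF4G until mTORC1 phosphorylates it. It read 10.69, 10.60 and 10.60 in untreated cells, 10.56, 10.43 and 10.45 with the extract, and 10.64, 10.83 and 10.68 with carnosic acid. The extract arrays lay below all others. Neither difference from untreated cells passed (-0.15, adjusted p = 0.0577, and 0.084, adjusted p = 0.355). The former was called under 5 alternatives (adjusted p from 0.0248 to 0.0417): cyclic loess, arrays centred on the genes tested, the dimmer 50% left out, without rosemary extract replicate 1, and without carnosic acid replicate 2. EIF4ENIF1, which carries eIF4E into the nucleus, read 6.76, 6.88 and 6.80, then 6.94, 6.88 and 6.84, then 6.85, 6.88 and 7.01, and did not pass (0.074 and 0.10, adjusted p = 0.498 and 0.394).

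Among the elongation factors EEF1G fell with both treatments. It encodes the gamma subunit of the complex that recharges eEF1A with GTP. The arrays read 11.92, 11.95 and 11.89 in untreated cells, 11.49, 11.52 and 11.57 with the extract, and 11.48, 11.55 and 11.64 with carnosic acid. Every treated array lay below every untreated one. The falls were -0.39 ± 0.05 (SE, adjusted p = 4.01e-05) and -0.36 ± 0.05 (adjusted p = 3.10e-04). A dimmer row of the gene gave -0.11 and -0.10, and with the mean of both rows the falls were -0.25 and -0.23, still called. EEF1D, another subunit of that complex, gave 0.042 and -0.061 (adjusted p = 0.770 and 0.706), and the tissue-restricted EEF1A2 0.047 and 0.090 (adjusted p = 0.711 and 0.512).

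EEF1A1, the main carrier of charged tRNA, was not informative. It read 8.36, 8.48 and 8.50 in untreated cells and 8.45 on all 6 treated arrays, and 5 arrays shared exactly the same value. This was so for 2600 of all rows but for no other member. The gene also has many near-identical copies in the genome. Its fitted differences (0.0074 and 0.0077, adjusted p = 0.936 and 0.945) therefore give little measure of the transcript.

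EEF2, which moves the ribosome along, read 12.29, 12.29 and 12.21 in untreated cells, 12.45, 12.39 and 12.44 with the extract, and 12.28, 12.30 and 12.33 with carnosic acid. It rose by 0.17 ± 0.04 with the extract (log2, SE, adjusted p = 0.00329), a 1.12-fold change, and by 0.039 with carnosic acid, which did not pass (adjusted p = 0.497). EEF2K, the kinase that switches eEF2 off, went the other way. It read 7.61, 7.71 and 7.54 in untreated cells, 7.09, 6.93 and 6.99 with the extract, and 7.36, 7.23 and 7.66 with carnosic acid. The fall with the extract was -0.62 ± 0.11 (SE, adjusted p = 6.50e-04), the largest among the members. With carnosic acid 2 arrays lay below the untreated range and 1 within it (-0.21, adjusted p = 0.208). Without carnosic acid replicate 3, the highest of them, the difference was -0.33 and called (adjusted p = 0.0278).

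Of the methyltransferases that modify eEF1A, EEF1AKMT2 went from 7.31 ± 0.08 to 6.96 ± 0.20 with the extract (SD, n = 3, adjusted p = 0.0132), a call lost without untreated replicate 3 (adjusted p = 0.0506). EEF1AKMT1 and EEF1AKMT3 did not pass in either treatment, with differences between -0.037 and 0.20. GSPT1, the GTPase partner of the release factor, read 9.82, 9.75 and 9.93 in untreated cells, 9.88, 9.81 and 9.84 with the extract, and 9.76, 9.81 and 10.02 with carnosic acid. It overlapped throughout (0.014, 95% interval -0.14 to 0.17, and 0.031, -0.12 to 0.19, adjusted p = 0.903 and 0.807).

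Set beside the printed starts, of the members with a pyrimidine run EEF2 rose with the extract, EIF4B (-0.086, adjusted p = 0.157) and EIF2D did not pass, and EEF1A1 was not informative. With carnosic acid EIF4B was called lower, in the call lost under 12 alternatives, and EEF2 and EIF2D did not pass. EEF1G, with no run at its annotated start but a C and pyrimidines directly after that base, fell with both. It is a single gene and does not stand for the members without a run.

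The direct contrast between the treated groups tests whether their effects differ. Called members numbered 3 higher with the extract and 3 lower, 18.2% beside 17.3% of all genes (8.24% higher, 9.07% lower). The groups did not overlap for 14 of 33 members, beside 31.8% of all genes. The median log2 difference was -0.001 against 0.012 for all genes. EIF5A2 was higher with the extract by 0.91 ± 0.12 (log2, SE, adjusted p = 3.17e-04), EIF1 by 0.33 ± 0.06 (adjusted p = 0.00167) and EEF2 by 0.13 ± 0.04 (adjusted p = 0.0325). EEF2K was lower with the extract by -0.41 ± 0.11 (adjusted p = 0.0195), EIF2AK2 by -0.35 ± 0.09 (adjusted p = 0.0153) and EIF4EBP2 by -0.24 ± 0.06 (adjusted p = 0.0150). EIF2AK3 (0.033, 95% interval -0.20 to 0.26), EEF1G (-0.029, -0.13 to 0.07) and EIF1AD (0.044, -0.09 to 0.18) were not called different.

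Only EIF5A2 and EIF1 kept their direct calls under all 19 alternatives. The count of 6 was 2 without rosemary extract replicate 2 and 3 without carnosic acid replicate 3, and 2 when all rows were tested. The calls of EEF2K and EIF2AK2 were lost under these 3 settings (adjusted p up to 0.0965 and 0.0899). That of EIF4EBP2 was lost under 4 alternatives (up to 0.0849), rosemary extract replicate 2 and carnosic acid replicate 2 among the arrays left out, and that of EEF2 under 10 (up to 0.205), with any of the 6 treated arrays left out. EIF1B was called without untreated replicate 3 (0.30, adjusted p = 0.0222) and EIF5 without rosemary extract replicate 3 (0.31, 0.0199). As the doses are not given, a larger difference with the extract is not a comparison at a matched amount of carnosic acid.

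Other regulators of cytosolic translation, a list of 40 genes with 22 tested, were called higher in 11 and lower in 2 with the extract, and higher in 6 and lower in 3 with carnosic acid. The called shares were 59.1% and 40.9%, beside 38.1% and 19.0% of all genes. The list was drawn up with earlier results of these data known, so this excess is not an independent result. Their median log2 differences were 0.14 and 0.011, beside -0.018 and -0.011 for all genes. The genes called lower, named after their values were seen, were PAIP2B, an inhibitor of the poly(A)-binding protein, with both treatments (-0.77 and -0.62, adjusted p = 2.14e-04 and 0.00283), GCN1 with the extract, and PAIP1 and RPS6 with carnosic acid. The calls of PAIP2B held under all 19 alternatives. That of GCN1 was lost under 4 (adjusted p up to 0.0671), with untreated replicate 2 or rosemary extract replicate 1 left out among them. That of PAIP1 was lost under 5 (up to 0.0772), among them untreated replicate 1 and carnosic acid replicates 1 and 3. That of RPS6 was lost under 8 (up to 0.11), among them untreated replicates 1 and 3 and carnosic acid replicates 1 and 2. CPEB4, which binds the cytoplasmic polyadenylation element of mRNAs, went from 5.75 ± 0.07 to 8.24 ± 0.25 with the extract and 7.06 ± 0.21 with carnosic acid (SD, n = 3). Its rises were 5.63-fold (adjusted p = 9.89e-08) and 2.48-fold (adjusted p = 6.63e-05), the 17th and 30th largest differences of all genes tested.

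MKNK2, a kinase of eIF4E, rose by 1.10 ± 0.07 (log2, SE) and 0.44 ± 0.07 (adjusted p = 2.81e-07 and 9.83e-04). GTPBP2, a GTPase of ribosome rescue, rose by 1.38 ± 0.09 and 0.43 ± 0.09 (adjusted p = 3.30e-07 and 0.00595). AKT1S1, the PRAS40 subunit that restrains mTORC1, rose by 0.84 ± 0.09 and 0.54 ± 0.09 (adjusted p = 2.21e-05 and 0.00199). These 3 and CPEB4 kept their calls against untreated cells under all 19 alternatives.

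EIF4EBP1, the paralog of EIF4EBP2 left out of the members by the rule, read 8.01, 8.04 and 7.80 in untreated cells, 8.58, 8.57 and 8.79 with the extract, and 8.19, 8.30 and 8.27 with carnosic acid. The groups lay apart and in that order, with carnosic acid between. It rose by 0.70 ± 0.08 (log2, SE, adjusted p = 4.12e-05) and 0.30 ± 0.08 (adjusted p = 0.0253), and the latter call was lost under 6 alternatives (adjusted p up to 0.0971), among them leaving out untreated replicate 3 or carnosic acid replicate 2 or 3. PPP1R15A, the eIF2 phosphatase subunit GADD34, had no named row here.

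Factors of mitochondrial translation, 7 tested of 12, had 1 member higher with the extract (14.3%, beside 38.1% of all genes) and 2 lower with carnosic acid (28.6%, beside 19.0%). MTRF1L, a mitochondrial release factor, rose by 0.42 ± 0.07 with the extract (log2, SE, adjusted p = 3.73e-04), a change of 0.208 with the mean of its rows, and 0.20 with carnosic acid did not pass (adjusted p = 0.0560). The initiation factor MTIF2 fell by 0.31 with carnosic acid (adjusted p = 0.00355) and the rescue factor MTRFR by 0.35 (adjusted p = 0.0158), the latter a call lost under 4 alternatives (adjusted p up to 0.0672), among them leaving out untreated replicate 1 or carnosic acid replicate 1 or 2. With the extract they stood at -0.154 and -0.155 (adjusted p = 0.0611 and 0.196).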

How the data were processed

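The deposited values are log2 RMA expression values of Affymetrix GeneChip 2.0 ST arrays, computed by the authors with oligo in R, per the labels. The scale follows from the range of the values, and the sources used here give no versions or build. RMA compresses large changes and gives no detection call. The 16098 rows with 1 symbol in the platform annotation were used, all matched by Entrez identifier to RefSeq with 0 symbols changed, and 37519 rows were unnamed here. Of a gene's rows the brightest was kept, and the dimmest 25% of 14884 genes were left out, which left 11163. Group means were fitted to all 9 arrays with limma 3.58.1 in R 4.3.3 (eBayes with trend, 6 residual degrees of freedom), with Benjamini-Hochberg adjustment over all genes tested, two-sided. The script was tested on simulated data. Every member could be named, and of each other list the 3 called genes of lowest p. The CACGTG motif was added after the values were seen. Alternatives covered normalization, filter, rows, variance prior, samples, replicate block and each array left out. Members and lists were chosen with earlier results of these data known. The number of arrays limits the precision.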

Additional observations from a re-analysis of the deposited data

Results flagged for a closer look

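EIF4EBP2 was flagged because its treated arrays lay on opposite sides of the untreated mean. All 3 were below it with rosemary extract and all 3 above it with carnosic acid. The carnosic acid arrays still overlapped the untreated ones. The rule also asked for a called direct contrast, so that call was part of the choice. The direct difference between the treatments was -0.24 (log2, extract minus carnosic acid, adjusted p = 0.0150 in limma), although neither treatment differed from untreated cells at the threshold (adjusted p = 0.0577 and 0.355). The direct call was lost under 4 of 19 alternatives, with adjusted p up to 0.0849.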

How the results depend on the processing

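Of 25 member calls in the 3 comparisons 17 held under every one of 19 alternatives that tested the gene (EIF1B was too dim for 1 of them), and 8 were lost under at least 1, each named in the text. The count of 13 with the extract ranged from 11 to 15 with 1 array left out, and the 6 with carnosic acid from 5 to 6. With the extract it was 12 under median centring and with all rows tested. Cyclic loess and centring on the genes tested each gave 16. With carnosic acid the count was 4 with all rows tested and 7 under cyclic loess. In the direct comparison the count of 6 was 2 when all rows were tested and 2 to 7 with 1 array left out, and the 3 lower members were 0 and 0 to 3. No called member changed sign (0 reversed), and 67 of 1373 values of uncalled members did. Deviations of same-numbered arrays correlated at -0.219 to 0.238, and those of differently numbered arrays at -0.355 to 0.28. With 3 arrays per group this cannot decide whether replicate numbers pair the arrays. A fit with the replicate block called 13, 5 and 6 members, and the only call it lost was EIF4B with carnosic acid (adjusted p = 0.0568). Dim rows such as GSPT2 cannot be told from background.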

Other observations

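Besides EIF4EBP1, 4 genes with a factor's name were left out by the rule. The pseudogene EEF1DP3 went from 6.77 ± 0.15 in untreated cells to 6.46 ± 0.14 with rosemary extract and 6.64 ± 0.09 with carnosic acid (log2, SD, n = 3). The divergent transcript EIF3J-DT stood at 7.21, 7.19 and 7.18 in the same order. The antisense transcript EIF1B-AS1 was under the dim limit at 3.72, 3.63 and 3.73. EEF1AKMT4-ECE2, a readthrough gene, stood at 5.58, 5.53 and 5.48. These were not tested as members.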
